A study of Mus musculus with 7 samples.

Results

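The comparison set mock-treated B16 cells at 91 h against the same cells at 48 h. B16 is a mouse melanoma line of C57BL/6 origin, here a clonal stable line kept for at most 5 passages. The mock cells had been detached, held for 5 h in medium alone, washed 3 times and plated in duplicate, with 35000 cells in each well of 96-well plates. No cytokine was added to either group, and whether the medium was changed is not given in the sources used here. The labels give 1 sample for each group and time, whose deposited mean resolved into the whole reads of 2 libraries, so 4 of 14 libraries, in 2 of 7 groups, enter the comparison. The series also holds a start sample (T0), mock cells at 23.5 h, and cells pulsed with 10 nM interferon-gamma (IFNγ) for 5 h and followed over the same times. Genes were matched by identifier between the table of each mock time against T0, both tables were put on 1 scale through their shared T0 means, and a gene was kept where its mean reached 20 normalised reads at either time. That left 12606 genes of the 13587 listed anywhere in the series. The genes nearest to this limit had a higher group mean of 20.06 inside it and 19.995 outside it.

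Cells in culture copy their DNA and divide until density, spent medium or damage signals stop them. On leaving the cycle, the pocket-protein complex DREAM occupies the promoters of mitotic genes at a short element called the cell cycle genes homology region (CHR) and holds them down. Lysosomes are the acid compartments that digest cell material delivered by autophagy, and the TFEB, TFE3 and MITF factors bind many of their promoters at an E box, the coordinated lysosomal expression and regulation (CLEAR) element. In pigment cells MITF also drives the melanosome, an organelle related to the lysosome.

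The promoters of 2 of the mitotic genes that fell and of 2 of the lysosomal genes that rose are shown, because most genes of both lists moved in 1 direction and many hold these elements. Each runs from 250 bases before to 50 bases after the RefSeq start (GRCm38.p6), 5′ to 3′ on the gene's strand. In the first pair capitals mark TTTGAA or its complement, in the second pair CACGTG and, where its flanks match, TCACGTGA. The Mcoln1 promoter also holds TTTGAA, which is left in lower case.
Ube2c, chr2:164769679-164769978, plus strand: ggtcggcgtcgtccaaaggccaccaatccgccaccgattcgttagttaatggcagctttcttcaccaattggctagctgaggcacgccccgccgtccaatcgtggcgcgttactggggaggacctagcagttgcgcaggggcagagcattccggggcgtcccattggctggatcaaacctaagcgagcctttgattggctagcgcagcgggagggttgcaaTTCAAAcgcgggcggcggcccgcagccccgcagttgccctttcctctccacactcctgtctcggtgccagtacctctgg
Ccnb2, chr9:70421505-70421804, minus strand: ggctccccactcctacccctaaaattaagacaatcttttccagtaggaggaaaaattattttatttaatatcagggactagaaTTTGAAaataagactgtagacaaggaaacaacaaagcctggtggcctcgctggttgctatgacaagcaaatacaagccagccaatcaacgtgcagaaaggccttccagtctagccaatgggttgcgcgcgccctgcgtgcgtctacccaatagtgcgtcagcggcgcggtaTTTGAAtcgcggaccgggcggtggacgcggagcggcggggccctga
Mcoln1, chr8:3500269-3500568, plus strand: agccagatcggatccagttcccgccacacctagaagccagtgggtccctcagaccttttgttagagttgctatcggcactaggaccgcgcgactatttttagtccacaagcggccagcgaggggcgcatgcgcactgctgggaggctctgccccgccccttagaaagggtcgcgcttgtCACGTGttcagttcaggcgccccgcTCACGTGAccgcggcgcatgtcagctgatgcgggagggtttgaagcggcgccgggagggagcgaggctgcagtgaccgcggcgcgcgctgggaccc
Ctsd, chr7:142387778-142388077, minus strand: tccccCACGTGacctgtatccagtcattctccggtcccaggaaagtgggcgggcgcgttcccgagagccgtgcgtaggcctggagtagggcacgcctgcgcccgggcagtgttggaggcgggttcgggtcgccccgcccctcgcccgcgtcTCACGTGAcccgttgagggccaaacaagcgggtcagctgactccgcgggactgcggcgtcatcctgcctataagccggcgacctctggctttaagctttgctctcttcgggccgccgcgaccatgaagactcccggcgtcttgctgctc
The site in Ube2c began 29 bases before the start. One site in Ccnb2 began 167 bases before the start, and the other lay just after it. The CLEAR-type site began 46 bases before the start in Mcoln1 and 99 bases before it in Ctsd. RefSeq promoters matched 8922 of the 12566 genes tested, by symbol. On either strand, TTTGAA lay in 23 of 29 mitotic promoters (79.3%) and in 15.6% of lysosomal ones. Its share was 26% in promoters of the genes called lower at 91 h and 13.9% in all. CACGTG lay in 14 of 32 lysosomal promoters (43.8%), in 19.7% of those of the genes called higher, and in 12.1% of all. Its share was 15% in autophagy promoters and 23.5% in those of sterol genes, none of which rose. The longer TCACGTGA, which holds CACGTG, lay in 6 lysosomal promoters (18.8%) and 0 of 20 autophagy promoters, against 2.28% of all. The CLEAR palindrome, which extends it by a base at each end, lay in 0 of 32 lysosomal promoters and in 0.841% of all. The searches for TTTGAA and TCACGTGA were chosen after the expression values were seen. Both lists include genes known for these elements, so the shares describe the lists and no test was made. Of the other motifs searched, TTTC, 2 bases of any kind and TTTC lay in 14 of 35 promoters of interferon-stimulated genes (40%). Over all promoters its share was 3.6%. ACGTG, which is part of CACGTG, lay in 66.7% of hypoxia-gene promoters against 30.2% of all. It was not particular to them, with 60% of glycolysis, 53.1% of lysosomal and 44% of stress-response promoters. Sterol, mitotic and interferon-stimulated promoters had 23.5%, 27.6% and 8.57%. TGATGCAA lay in 7 of 25 promoters of the integrated stress response (28%) against 0.706%. GGCGGGAA, also chosen after the expression values were seen, lay in 7 of 26 replication promoters (26.9%), 0 of 29 mitotic ones and 4.93% of all. TGACGTCA lay in 1.88% of promoters of genes called higher, 4.21% of those called lower and 3.77% of all. For TGACGCAA these shares were 1.41%, 1.02% and 1.09%, and for GCGTG 46%, 54.6% and 57.6%.

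Between 48 and 91 h genes of cell division fell by the largest ratios, and those of the lysosome and of the p53 response rose. The large changes were mostly falls. Of 12566 genes tested, 3347 rose (26.6%) and 3759 fell (29.9%) by limma at an adjusted p below 0.05. With a change of at least 2-fold as well, 328 were called higher (2.61%) and 1035 were called lower (8.24%). At least 4-fold, 32 were higher and 354 lower. At least 16-fold, 1 was higher and 104 were lower. The median log2 ratio over all genes was -0.02. Ratios below are of the group means plus 1, 91 h over 48 h, on the log2 scale, with the standard error and adjusted p of limma's estimate over the 4 libraries. In genes whose reads could be recovered, the 48 h libraries had 19298225 and 16532605 reads and the 91 h libraries 16409241 and 12894823. Where the mean was 1000 or more, the SD of log2(library 1 / library 2) was 0.1497 for the 48 h pair and 0.0875 for the 91 h pair, with no gene 2-fold apart. Whether a pair came from separate cultures is not stated, and its spread, on which the p-values rest, may be technical. All 194 named genes that passed limma had libraries that did not overlap between the times. Non-overlap, where stated below, therefore describes the values and adds no support to the test. Its share over all genes is not given here. The levels are relative, and in bulk RNA fewer cells expressing a gene and less of its RNA per cell cannot be told apart. The pigment gene Pmel, a marker of the melanocyte lineage, had a mean of 56699 at 48 h and 74632 at 91 h. Markers of other cell types were few and low, with summed levels of 120 at 48 h and 130.0 at 91 h for 1 of 13 T cell markers, 482 and 346 for 5 of 10 fibroblast markers, 432 and 166 for 1 of 8 endothelial markers, and none of 8 keratinocyte markers listed. Of 13 myeloid markers 2 were listed at 48 h and 1 at 91 h, with summed levels of 43.8 and 35.0. Cd68, the only one of them compared, had 6.84 and 9.79 at 48 h and 44.8 and 25.3 at 91 h.

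**Figure D1:**
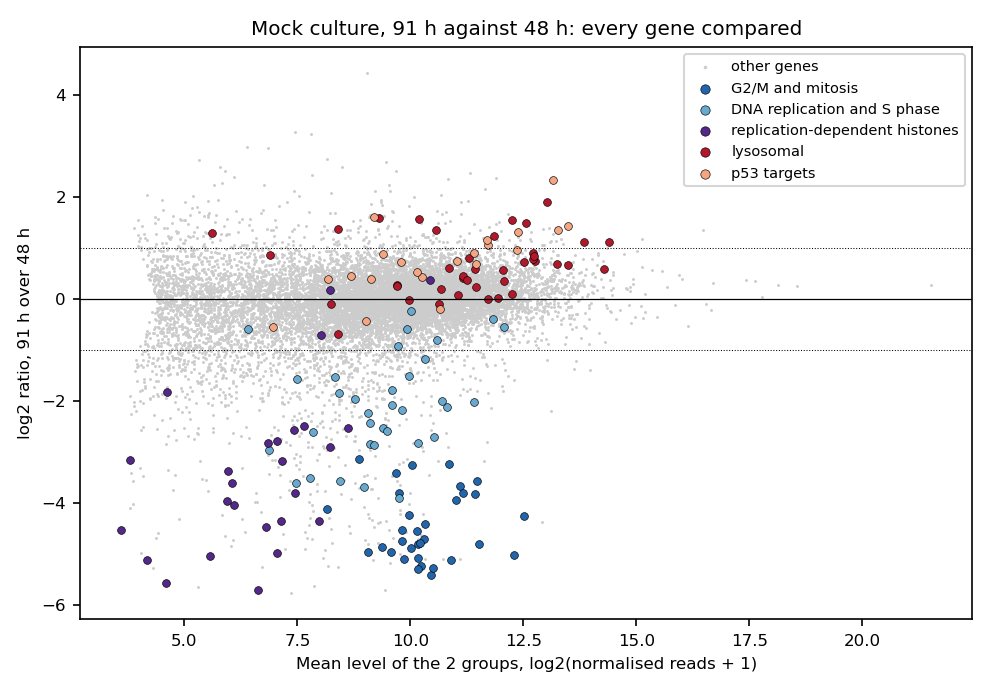
Each point is 1 of the 12606 genes compared, with its mean level over the 2 mock groups on the x axis, as log2(normalised reads + 1), and its log2 ratio of 91 h over 48 h on the y axis. Dotted lines mark 2-fold. Mitotic genes lie between -5.42 and -3.13, and lysosomal and p53 target genes lie mostly above 0.

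Genes of mitosis had the lowest median of all lists. All 33 of 33 mitotic genes fell and were called lower, with a median log2 ratio of -4.72, a range of -5.42 to -3.13, against an all-gene median of -0.02. Ube2c, the conjugating enzyme of the anaphase-promoting complex (chromosome 2, 164769898 to 164778822), had 2691 and 2827 normalised reads at 48 h and 63.4 and 63.2 at 91 h, a log2 ratio of -5.42 (SE 0.10, adjusted p = 4.8e-11). Both 91 h libraries were 42.9-fold below the 48 h level by their means. Hmmr, a spindle-associated hyaluronan receptor, had 2934 and 2743 at 48 h and 72.1 and 71.6 at 91 h (-5.28, SE 0.10, adjusted p = 4.8e-11). Prc1, which bundles the microtubules of the central spindle, had 5617 and 5727 at 48 h and 193.4 and 211 at 91 h (-4.80, SE 0.08, adjusted p = 4.8e-11). Top2a, the topoisomerase that untangles sister chromosomes, stayed the highest of these 4 at 91 h with 11687 and 10434 at 48 h and 587 and 562 at 91 h (-4.27, SE 0.07, adjusted p = 4.8e-11). In none of them did the groups overlap. Foxm1, a transcription factor of mitotic genes, fell by a smaller ratio, with 5105 and 5457 at 48 h and 434 and 457 at 91 h (-3.57, SE 0.07, adjusted p = 1.1e-10). Mki67, the gene of the proliferation marker Ki-67, had 10525 and 8815 at 48 h and 268 and 323 at 91 h (-5.03, SE 0.11, adjusted p = 1.1e-10). Of the kinase that starts mitosis and its cyclin, Cdk1 had 3073 and 3578 at 48 h and 363 and 343 at 91 h (-3.23). Ccnb1 had 1500.4 and 1727 at 48 h and 110.4 and 119 at 91 h (-3.80), both nearer 0 than most of the list. Anln, a scaffold of the contractile ring, had a ratio of -3.80.

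The 12 protein-coding genes with the lowest ratios, among called genes with a mean of at least 100 at either time, were mostly genes of division. Cdkn3, a phosphatase that acts on cyclin-dependent kinases, had 314 and 331 at 48 h and 0 and 9.83 at 91 h (-5.77, SE 0.79, adjusted p = 4.5e-05). With 1 library at 0, its ratio rests on the other. Pbk, a mitotic kinase, had 1228 and 1496 at 48 h and 37.1 and 12.6 at 91 h (-5.72). Neil3, a DNA glycosylase, had 404 and 516 at 48 h and 10.9 and 5.62 at 91 h (-5.63). Ccnb2, a mitotic cyclin, had 2159 and 2294 at 48 h and 48.1 and 63.2 at 91 h (-5.30). These 3 genes had both 91 h libraries below both 48 h libraries. The spindle and kinesin genes Nusap1, Kif15 and Kif11 had ratios of -5.25, -5.18 and -5.12, the helicase gene Pif1 -5.27, and Sapcd2, which acts in spindle orientation, -5.23. Tubb5, a beta-tubulin gene, and H1f0, a linker histone gene, were among the 5 genes of highest mean level called lower, with 17476 and 18575 at 48 h and 6767 and 7129 at 91 h (-1.38) and 18307 and 18094 at 48 h and 7444 and 8322 at 91 h (-1.21).

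Genes of DNA replication fell less far and less evenly. Of 34 tested, 33 fell and 27 were called lower, with a median of -2.11. Tk1, thymidine kinase, had 1629 and 1582 at 48 h and 117 and 94.1 at 91 h (-3.91, SE 0.12, adjusted p = 8.9e-10). Mcm10, a factor of origin firing, had 960.1 and 909 at 48 h and 73.2 and 68.8 at 91 h (-3.70, SE 0.12, adjusted p = 1.2e-09). Uhrf1, which takes part in copying DNA methylation onto new strands, had a ratio of -2.70 and the polymerase gene Pole -2.85. All 4 were called lower. The 2 subunits of ribonucleotide reductase, which makes deoxynucleotides, had 4258 and 4404 at 48 h and 1128 and 1002 at 91 h for Rrm1 (-2.02) and 1417 and 2587 at 48 h and 262 and 299 at 91 h for Rrm2 (-2.83). Subunits of the same helicase moved by unequal amounts, with 957 and 1348 at 48 h and 225 and 169.98 at 91 h for Mcm5 (-2.54) and 4139 and 6099 at 48 h and 3526 and 3433 at 91 h for Mcm2 (-0.56), which did not pass without a variance trend or over 14 libraries (limma adjusted p = 0.083 to 0.086). Pcna, the sliding clamp, had 1528 and 2372 at 48 h and 1146 and 1101 at 91 h (-0.79). The 48 h libraries of all these genes lay above both 91 h libraries. Fen1 was the only replication gene that did not pass, with 103 and 98.9 at 48 h and 87.4 and 46.4 at 91 h (adjusted p = 0.055).

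Transcripts of replication-dependent histones, which are made in S phase and mostly lack a poly(A) tail, fell in 24 of 26 cases of 40 in the list, 23 of them called, with a median of -3.49. Hist1h3c had 158 and 225 at 48 h and 1.09 and 4.21 at 91 h (-5.72, SE 0.43, adjusted p = 1.1e-06). Hist1h1d had 431 and 527 at 48 h and 25.1 and 19.7 at 91 h (-4.36, SE 0.19, adjusted p = 1.6e-08). Hist1h4f had 242 and 289.8 at 48 h and 9.83 and 14.05 at 91 h (-4.37). The linker histone gene Hist1h1c rose, with 1139 and 1267 at 48 h and 1714 and 1423 at 91 h (0.38, SE 0.10, adjusted p = 0.0067), which did not pass without 91 h library 1 or without a variance trend (limma adjusted p = 0.06 to 0.12). Hist1h2bc did not pass, with 253 and 306 at 48 h and 345 and 288 at 91 h. Histone genes of a class are near-identical copies, so reads may be split between them. The labels name poly(A) RNA as the molecule and total RNA as the extract.

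The list of CDK inhibitors and quiescence genes, which also holds the cyclin gene Ccnd3, did not move as a group. Of 19 tested, 9 rose and 8 fell. Cdkn1a, the CDK inhibitor p21 and a p53 target, rose, with 6060.4 and 4985 normalised reads at 48 h and 13690.1 and 14378 at 91 h (1.35, SE 0.09, adjusted p = 4.3e-07). Cdkn1b, the inhibitor p27, rose by less, with 6620.4 and 6159 at 48 h and 7748 and 7707 at 91 h (0.27, SE 0.07, adjusted p = 0.0044), which did not pass without 91 h library 1 (limma adjusted p = 0.055). The INK4 inhibitor genes Cdkn2c and Cdkn2d fell, with ratios of -1.96 and -1.84, as did the pocket-protein gene Rbl1 (-2.17) and the cyclin gene Ccnd3 (-1.17). Ccnd1, a cyclin of G1, had 7645 and 7187 at 48 h and 6208 and 6831 at 91 h (-0.19, SE 0.07, adjusted p = 0.044), which did not pass without 48 h library 1, 91 h library 1 or 91 h library 2, without a variance trend or over 14 libraries (limma adjusted p = 0.069 to 0.42). The growth factor-responsive Myc had 5904 and 5106 at 48 h and 3955 and 4506 at 91 h (-0.38, SE 0.09, adjusted p = 0.0035), which did not pass without 91 h library 1 or without a variance trend (limma adjusted p = 0.051 to 0.051). The count of genes lower on this list was 5 without 48 h library 1 or either 91 h library. Txnip, an arrestin that binds thioredoxin and limits glucose uptake, fell the furthest of the list, with 15353 and 13905 normalised reads at 48 h and 729 and 687 at 91 h (-4.37, SE 0.07, adjusted p = 4.8e-11). Its mean had been 2056 at T0 and 3146 at 23.5 h, so the 48 h value was the peak of the mock course and the 91 h value its low point.

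Targets of p53 moved the other way. Of 21 tested, 17 rose, 2 fell and 7 were called higher, with a median of 0.75. Trp53inp1, a p53-induced nuclear protein that also takes part in autophagy, had 3255 and 2806 normalised reads at 48 h and 15302 and 15322 at 91 h (2.34, SE 0.08, adjusted p = 1.8e-09). The 91 h libraries stood 5.05-fold above the 48 h ones by their means. Ccng1, cyclin G1, had 6561 and 5850.2 at 48 h and 16082 and 17297 at 91 h (1.43, SE 0.07, adjusted p = 8e-08). Zmat3, an RNA-binding protein, had 3268 and 2793 at 48 h and 7598 and 7579 at 91 h (1.32, SE 0.08, adjusted p = 2.1e-07). Phlda3, an inhibitor of AKT at the membrane, and Sesn2, a sestrin that restrains mTORC1, had ratios of 1.15 and 1.06. Mdm2, the ligase that degrades p53, had 3797 and 3325 at 48 h and 6959 and 6841 at 91 h (0.95). Bax, a pore former of apoptosis, had 1819 and 1948 at 48 h and 3757 and 3294 at 91 h (0.90). All 7 had the lower 91 h library above the higher 48 h library. The members that fell were Ddb2, a damage-recognition factor, with 149.6 and 144 at 48 h and 97.2 and 103 at 91 h (-0.55, SE 0.15, adjusted p = 0.0098), which did not pass without 48 h library 1 (limma adjusted p = 0.053), and Sesn1, with 553 and 625 at 48 h and 444 and 433 at 91 h (-0.43).

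**Figure D2:**
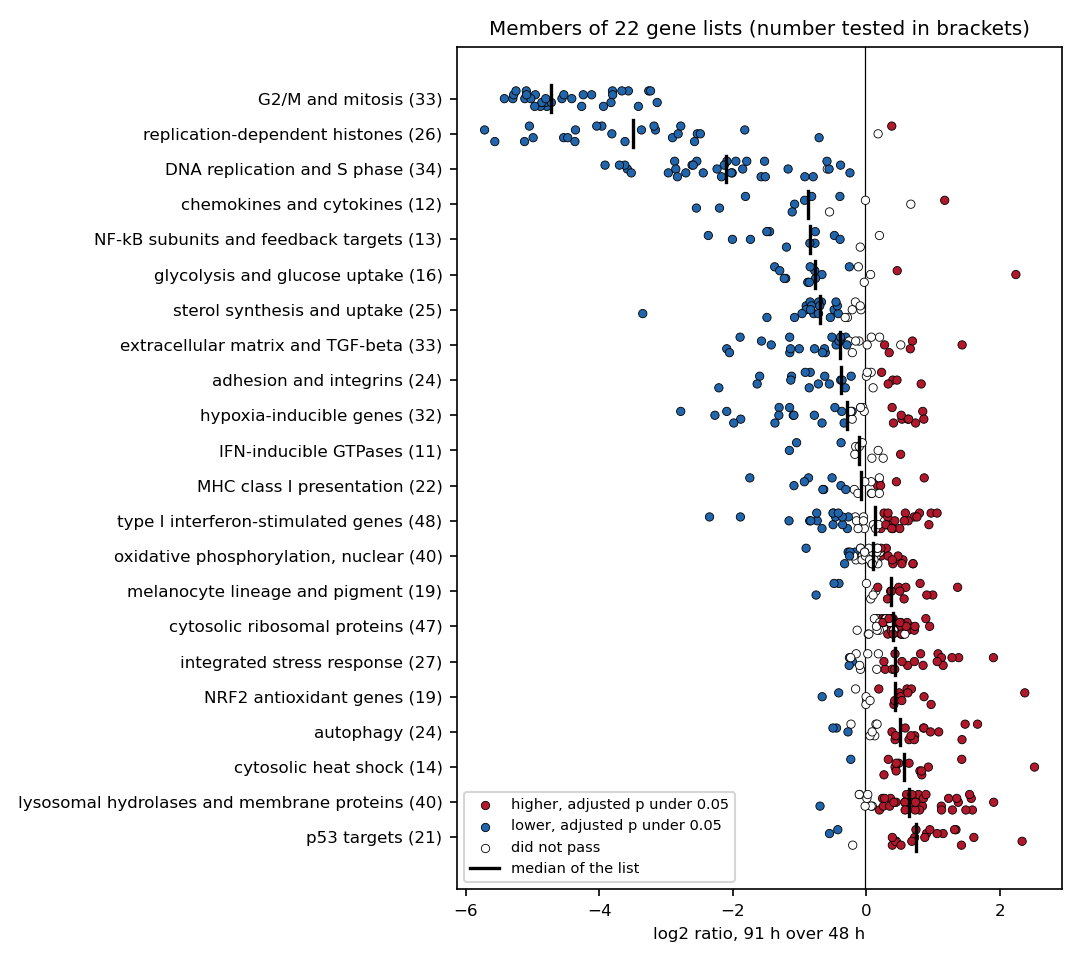
Each point is 1 gene, placed by its log2 ratio of 91 h over 48 h, in 22 lists with the number of genes tested in brackets. Red points rose, blue points fell and white points did not pass limma at an adjusted p below 0.05, and black bars are medians. The 3 cell-cycle lists have medians of -4.72, -3.49 and -2.11, and the other lists lie between -0.87 and 0.75.

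Genes of the lysosome rose together. Of 40 tested, 32 rose and 11 were called higher, 1 fell, and the median was 0.64. Ctsl, the cysteine protease cathepsin L, had 3509 and 3487 normalised reads at 48 h and 14028 and 12275 at 91 h (1.91, SE 0.07, adjusted p = 7.3e-09). It was 3.76-fold higher, with no overlap between the times. Tpp1, a tripeptidyl peptidase, had 3003 and 3289 at 48 h and 9156 and 8562 at 91 h (1.49, SE 0.07, adjusted p = 3.8e-08). Grn, the precursor of progranulin, had 2425 and 2530.04 at 48 h and 7779 and 6729 at 91 h (1.55, SE 0.08, adjusted p = 6.1e-08). Both 91 h libraries of each lay above both 48 h libraries. Mcoln1, a calcium channel of the lysosomal membrane, had 276 and 355 at 48 h and 965 and 943 at 91 h (1.59, SE 0.12, adjusted p = 1.1e-06). Lamp1, a main protein of that membrane, and Ctsd, the aspartic protease cathepsin D, were among the 5 genes of highest mean level called higher, with 8818 and 9478 at 48 h and 20156 and 19848 at 91 h (1.13) and 13079 and 13952 at 48 h and 29571 and 29419.9 at 91 h (1.13). Tfeb, the gene of a transcription factor that binds CLEAR elements, was the member that fell, with 429 and 406 at 48 h and 253 and 263 at 91 h (-0.69, SE 0.11, adjusted p = 0.00026). The 7 members that did not pass had ratios between -0.10 and 0.09.

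Of 24 autophagy genes tested, 15 rose, 3 fell and 4 were called higher, with a median of 0.51. Calcoco1, a receptor for autophagy of the endoplasmic reticulum, had 1064 and 1048 at 48 h and 3258 and 3457 at 91 h (1.67, SE 0.07, adjusted p = 1.2e-08). Map1lc3b, the LC3B protein that coats autophagosomes, had 884 and 937 at 48 h and 2644 and 2448 at 91 h (1.48, SE 0.08, adjusted p = 6.3e-08). Atg2a, a lipid transfer protein of the growing membrane, had 398 and 379.9 at 48 h and 1072 and 1037 at 91 h (1.44, SE 0.09, adjusted p = 2.1e-07). All 3 were called higher. Gabarap, an LC3 relative, had a ratio of 0.87. Uvrag, Atg5 and Wipi1 were the members that fell, with ratios of -0.50, -0.45 and -0.27. Wipi1 did not pass without either 91 h library (adjusted p = 0.11 and 0.074 by limma). Sqstm1, the autophagy receptor p62, could not be tested because the reads of its 48 h libraries had several solutions. Its mean was 21833 at 48 h and 49346 at 91 h, with 50759 and 47933 in the 91 h libraries.

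Of 19 genes of the melanocyte lineage tested, 12 rose and 3 fell, with a median of 0.37. Mlana, a melanosome protein, had 3789 and 4955 at 48 h and 11619.6 and 10987 at 91 h (1.37, SE 0.11, adjusted p = 1.5e-06), and was the one called higher. Myo5a, the motor that carries melanosomes, had 14104 and 13779 at 48 h and 27895 and 27793 at 91 h (1.00, SE 0.06, adjusted p = 3.6e-07), just under the 2-fold limit. Tyr, the rate-limiting enzyme of melanin synthesis, had 11928 and 13198 at 48 h and 23822 and 23322 at 91 h (0.91, SE 0.07, adjusted p = 1.7e-06). Slc45a2, a melanosome transporter, had 3833 and 3856 at 48 h and 6605 and 6854 at 91 h (0.81). The 91 h libraries of these 4 genes were the higher. Rab27a, which tethers melanosomes to Myo5a, had a ratio of 0.59. Mitf itself, the regulator of these genes, fell, with 12434 and 11699.5 at 48 h and 8178 and 9099 at 91 h (-0.48, SE 0.07, adjusted p = 0.00023), as did Mc1r, the melanocortin receptor, with 4145 and 4407 at 48 h and 2466 and 2613 at 91 h (-0.75, SE 0.07, adjusted p = 5.9e-06). The most abundant pigment genes could not be tested: Gpnmb had a mean of 50954 at 48 h and 129619 at 91 h, Tyrp1 of 177287 at 48 h and 226360.0 at 91 h, Pmel of 56699 at 48 h and 74632 at 91 h and Dct of 97594 at 48 h and 91818 at 91 h.

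Genes of glycolysis fell. Of 16 tested, 11 fell, 2 rose and 4 were called lower, with a median of -0.77. Gapdh, a central enzyme of the pathway and often used as a reference gene, had 11418 and 11948 normalised reads at 48 h and 4887 and 5236 at 91 h (-1.21, SE 0.07, adjusted p = 1.2e-07). Pgk1, the next enzyme, had 3226 and 3386 at 48 h and 1277 and 1413 at 91 h (-1.30, SE 0.07, adjusted p = 1.6e-07). Aldoc, an aldolase, had 1088 and 1297 at 48 h and 437 and 483 at 91 h (-1.37, SE 0.10, adjusted p = 1.3e-06). The 91 h libraries of these 3 genes were the lower. Eno1, the main enolase, and Slc2a3, a glucose transporter, had ratios of -0.77 and -0.84. Eno2, the enolase of neurons, rose instead, with 294 and 215 at 48 h and 1247 and 1173 at 91 h (2.24, SE 0.13, adjusted p = 1.9e-07). Slc2a1, the glucose transporter GLUT1, did not pass, with 1537 and 1663 at 48 h and 1430.2 and 1704 at 91 h (adjusted p = 0.77), and Hk2, a hexokinase, rose, with 2712 and 2734 at 48 h and 3415 and 4984 at 91 h (0.63, SE 0.13, adjusted p = 0.003), which did not pass without a variance trend (limma adjusted p = 0.058). The 91 h libraries of Hk2 lay further apart than the 48 h ones, without overlap between the times. Ldha, lactate dehydrogenase A, was not tested. Its mean was 23159 at 48 h and 8837 at 91 h.

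Genes induced by low oxygen fell more often than they rose. Of 32 tested, 17 fell, 9 rose, 11 were called lower and none higher, with a median of -0.28. Over all genes tested 29.9% fell, 26.6% rose and 8.24% were called lower. Car12 and Car9, carbonic anhydrases of the cell surface, had 895 and 626 at 48 h and 111 and 108 at 91 h (-2.78, SE 0.16, adjusted p = 1.4e-07) and 2173 and 1805 at 48 h and 334 and 490.3 at 91 h (-2.27, SE 0.15, adjusted p = 5.3e-07). Selenbp1, a selenium-binding protein, had 809.6 and 889 at 48 h and 205 and 222 at 91 h (-1.99). Pdk1, which blocks pyruvate entry into mitochondria, had 3465 and 3406 at 48 h and 759 and 1104 at 91 h (-1.88). Loxl2, a lysyl oxidase of the matrix, had 1064 and 896 at 48 h and 180.3 and 278 at 91 h (-2.09). Bnip3, a mitophagy receptor, had 2621 and 2589 at 48 h and 817 and 1199.7 at 91 h (-1.37, SE 0.14, adjusted p = 1.1e-05). In Car9, Pdk1, Bnip3 and Loxl2, 91 h library 2 was the higher of its pair, and it stayed below both 48 h libraries. Vegfa, the angiogenic factor, did not pass, with 4828 and 4409.9 at 48 h and 3978 and 4733 at 91 h (adjusted p = 0.41). Mt2, a metallothionein, rose, with 3753 and 3773 at 48 h and 6528 and 7164 at 91 h (0.86, SE 0.07, adjusted p = 2e-06).

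No gene of sterol synthesis and uptake rose. Of 25 tested, 19 fell, 3 by 2-fold or more (6 without 48 h library 1), with a median of -0.70. Srebf2, the transcription factor of the pathway, had 5645 and 6017 at 48 h and 3161 and 3377 at 91 h (-0.83, SE 0.07, adjusted p = 2.6e-06). Cyp51, a demethylase of sterol synthesis, had 3069.96 and 3347 at 48 h and 1803 and 1635 at 91 h (-0.90, SE 0.08, adjusted p = 3.5e-06). Both genes were lower in both 91 h libraries. Pmvk, phosphomevalonate kinase, had 310.3 and 379.9 at 48 h and 127 and 118 at 91 h (-1.49). Insig1 and Dhcr7 had ratios of -0.82 and -0.79. Hmgcs1, the first enzyme of the branch, had 1425 and 1917 at 48 h and 1215 and 1284 at 91 h (-0.42, SE 0.12, adjusted p = 0.013), which did not pass without 48 h library 2, without a variance trend or over 14 libraries (limma adjusted p = 0.051 to 0.27). Sqle, squalene epoxidase, did not pass, with 1888 and 2389 at 48 h and 2088 and 1930.1 at 91 h, where the groups overlapped. Genes of cholesterol export moved up: of 7 tested, 6 rose. Abca1, the transporter that loads cholesterol onto lipoproteins, had 1187 and 885 at 48 h and 3951 and 3889.8 at 91 h (1.92, SE 0.11, adjusted p = 1.9e-07). Apoe had 6722 and 7549.96 at 48 h and 12012 and 11103 at 91 h (0.70). Npc1, the cholesterol carrier of the lysosome, had 3271 and 3474 at 48 h and 5038 and 5028 at 91 h (0.58). Fatty acid synthesis had no common direction, with 6 of 13 lower and 3 higher. The desaturase genes Fads2 and Scd1 had ratios of -1.04 and -0.85, and Fasn, fatty acid synthase, had 4766 and 5867 at 48 h and 10978 and 10036 at 91 h (0.98, SE 0.09, adjusted p = 8.1e-06).

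Genes of the integrated stress response, in which ATF4 induces genes of amino acid supply when translation is slowed, rose in most cases. Of 27 tested, 17 rose (10 in a fit over 14 libraries), 3 fell and 7 were called higher (4 without 48 h library 2), with a median of 0.43. The count that fell was 5 without 48 h library 2, 1 without 91 h library 2 and 0 without 91 h library 1 or over 14 libraries. Ddit3, the transcription factor CHOP, had 5834 and 4849.6 normalised reads at 48 h and 12723 and 13327 at 91 h (1.29, SE 0.09, adjusted p = 4.9e-07). Its exons overlap those of Mars on the other strand, which fell, with 4007 and 3661 at 48 h and 1952 and 1821 at 91 h (-1.02), and whether counting used the strand is not given, so reads of the pair cannot be told apart. Aldh1l2, a mitochondrial folate enzyme, had 5542 and 4986 at 48 h and 13662 and 13854 at 91 h (1.39, SE 0.07, adjusted p = 6e-08). Atf5, a relative of ATF4, had 7289 and 6349.6 at 48 h and 14429 and 14331 at 91 h (1.08, SE 0.08, adjusted p = 7.4e-07). Nupr1, a stress-induced nuclear protein, had 1470.4 and 1144 at 48 h and 2741 and 2972 at 91 h (1.13). These 3 genes were called higher. Cth, an enzyme of cysteine synthesis, had a ratio of 0.81. Not all members moved on from 48 h. Asns, asparagine synthetase, fell, with 12246 and 11673 at 48 h and 10436 and 10282 at 91 h (-0.21, SE 0.06, adjusted p = 0.017), which did not pass without 91 h library 1 or 91 h library 2, without a variance trend or over 14 libraries (limma adjusted p = 0.077 to 0.36). Trib3, a pseudokinase, did not pass, with 9702 and 8492 at 48 h and 10686 and 9961 at 91 h (adjusted p = 0.063), and Chac1, which degrades glutathione, had 2681 and 2579 at 48 h and 3201 and 3201 at 91 h (0.28, SE 0.06, adjusted p = 0.0035), which did not pass over 14 libraries (limma adjusted p = 0.35). Atf3 had 1405 and 756 at 48 h and 1694 and 1631 at 91 h (0.62, SE 0.21, adjusted p = 0.015), which did not pass without a variance trend or over 14 libraries (limma adjusted p = 0.12 to 0.19). Its 48 h libraries lay far apart but both below the 91 h ones.

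Of 14 cytosolic heat shock genes 13 rose and 1 fell, with a median of 0.56. Hspa1b, an inducible Hsp70, had 13.7 and 19.6 at 48 h and 99.4 and 101 at 91 h (2.52, SE 0.26, adjusted p = 1.4e-05). Its near-identical copy was not among the genes compared, so reads shared between the copies may be missing. Hspb8, a small heat shock protein, had 144 and 149 at 48 h and 424 and 371 at 91 h (1.43, SE 0.12, adjusted p = 3.8e-06). Hspe1, whose exons overlap Hspd1 on the other strand, and Hspa8 had ratios of 0.93 and 0.80. Among chaperones of the endoplasmic reticulum, 10 of 22 rose and 6 fell, with 4 and 5 higher without 91 h library 1 and 2. Hspa5, the chaperone BiP, had 23201 and 22177 at 48 h and 41730.1 and 46085 at 91 h (0.95, SE 0.07, adjusted p = 1.5e-06), while Xbp1, a transcription factor of the unfolded protein response, fell, with 4001 and 4464 at 48 h and 2582 and 2512 at 91 h (-0.73, SE 0.07, adjusted p = 1.1e-05). Of 19 antioxidant genes 12 rose and 2 fell, with a median of 0.43. Hmox1, heme oxygenase 1, had 1219 and 1239 normalised reads at 48 h and 6465 and 6309 at 91 h (2.38, SE 0.06, adjusted p = 4.3e-10), 5.19-fold higher. Srxn1, sulfiredoxin, and Prdx1, a peroxiredoxin, had ratios of 0.97 and 0.87, and Txn1, thioredoxin, fell, with 4966 and 5513 at 48 h and 3239.5 and 3389.7 at 91 h (-0.66).

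Most genes of protein synthesis and turnover that passed rose by small amounts, and a few fell. Of 47 cytosolic ribosomal protein genes 32 rose and none fell or reached 2-fold, with a median of 0.40. Rpl14 had 1757 and 1851 at 48 h and 2564 and 2611 at 91 h (0.52, SE 0.07, adjusted p = 8.4e-05). Of 30 proteasome subunits 17 rose (11 without either 91 h library) and 2 fell, with a median of 0.20, and Psmc2, an ATPase of the cap, had 2028 and 2209 at 48 h and 3151 and 3211 at 91 h (0.59). Of 24 genes of ribosome assembly 10 rose (5 over 14 libraries) and 2 fell, with Mybbp1a at 0.80. Of 40 nuclear genes of oxidative phosphorylation 13 rose and 6 fell, with 21 higher without 48 h library 2 and 8 without 91 h library 1, and 3 lower without either 91 h library. Their median was 0.10, from -0.90 for Ndufb8, a subunit of complex I, to 0.70 for Atp5g1, a subunit of ATP synthase. Ribosomal protein genes have many processed copies, which may take part of their reads. Against T0, 25 of 30 proteasome subunits were lower at 91 h and 1 was higher by limma. Of 41 nuclear genes of oxidative phosphorylation 32 were lower than at T0 and 5 higher. Of 24 genes of ribosome assembly 11 were lower and 4 higher, and of 48 ribosomal protein genes 9 were lower and 25 higher.

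Genes induced by interferon, in cells that had received none, moved in both directions between 48 and 91 h. Of 48 type I interferon-stimulated genes tested, 20 rose, 17 fell and 11 did not pass, with a median of 0.12, which turned to -0.06 without 48 h library 2. Without a variance trend 12 rose and 10 fell. Mx1, a GTPase against influenza virus, had 584 and 487 normalised reads at 48 h and 106 and 103 at 91 h (-2.35, SE 0.13, adjusted p = 1.2e-07). Cmpk2, a mitochondrial nucleotide kinase, had 1184 and 1167 at 48 h and 681 and 625 at 91 h (-0.85, SE 0.08, adjusted p = 9.2e-06). Herc6, the mouse ligase that attaches ISG15, had 4340.4 and 3881 at 48 h and 2573 and 2368 at 91 h (-0.73, SE 0.08, adjusted p = 1.7e-05). Both 91 h libraries of each were below both 48 h libraries. Irf7, a transcription factor of interferon genes, had 1392 and 1123 at 48 h and 987 and 841 at 91 h (-0.46, SE 0.11, adjusted p = 0.0051), which did not pass without a variance trend (limma adjusted p = 0.056). Irf1 had 1562 and 1384 at 48 h and 564 and 570.3 at 91 h (-1.38, SE 0.09, adjusted p = 2.9e-07). Both transcription factors were lower in both 91 h libraries. In the other direction, Ifitm3, a membrane protein that blocks viral entry, had 5288 and 4802 normalised reads at 48 h and 10715 and 10357 at 91 h (1.06, SE 0.07, adjusted p = 4.3e-07). Isg15, the ubiquitin-like modifier, had 2702 and 2065 at 48 h and 4802 and 4341 at 91 h (0.94, SE 0.11, adjusted p = 3.5e-05). Ifi44 had 651 and 498 at 48 h and 1212 and 1047 at 91 h (0.97, SE 0.12, adjusted p = 6.6e-05). All 3 were higher in both 91 h libraries. Bst2, tetherin, had 4259.99 and 3784 at 48 h and 6971 and 6246 at 91 h (0.72). Lgals3bp, a secreted glycoprotein, had 5890.3 and 6987 at 48 h and 11498 and 10892 at 91 h (0.80). The groups overlapped in none of these. At 48 h library 1 was above library 2 in Mx1, Irf7, Isg15 and Ifi44, and the members' summed level was 124508 in library 1 and 105614 in library 2, against 135717 and 128374 at 91 h.

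**Figure D3:**
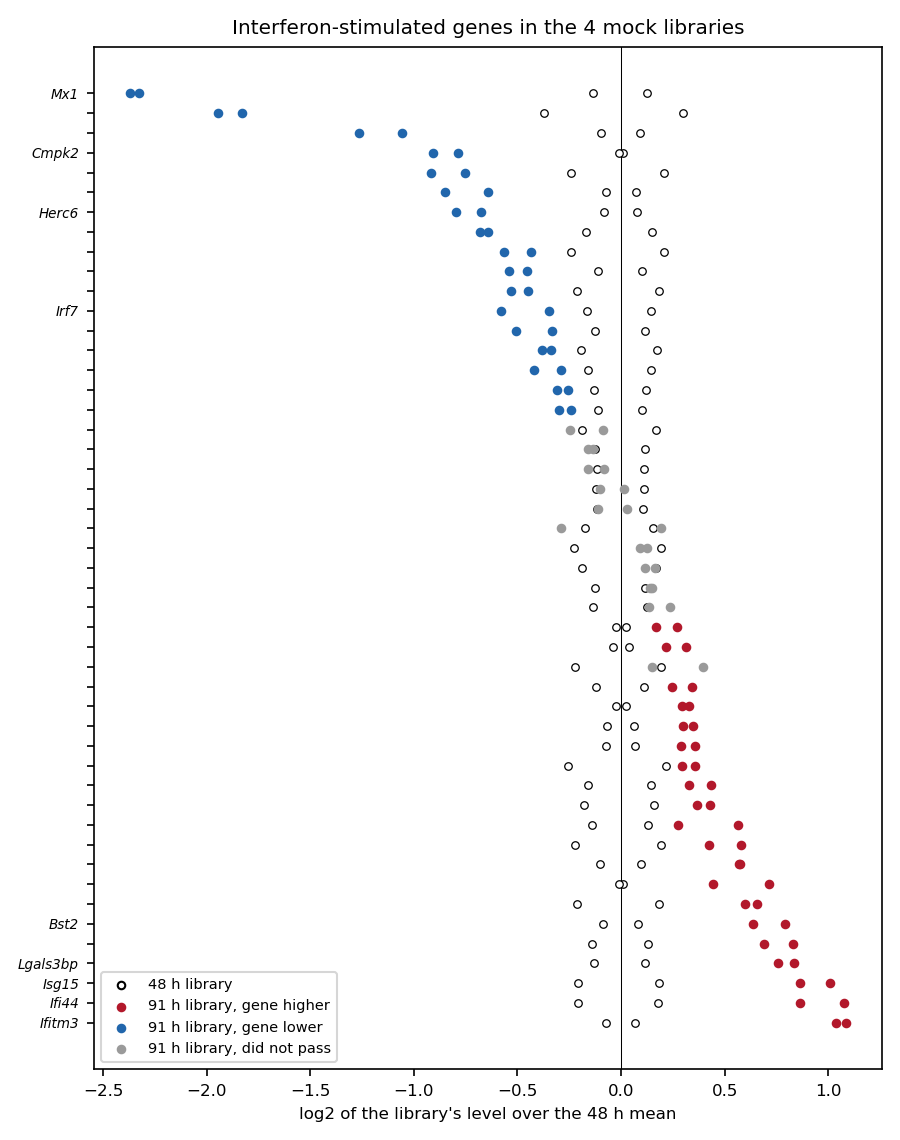
Rows are the 48 interferon-stimulated genes tested, ordered by ratio, with the genes of the text labelled, and the x axis gives each library's level over the 48 h mean on the log2 scale. Open circles are 48 h libraries, and filled circles are 91 h libraries, red where the gene rose, blue where it fell and grey where it did not pass. 20 genes rose, 17 fell and 11 did not pass, from -2.35 for Mx1 to 1.06 for Ifitm3.

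Antigen presentation was also split, and some of the counts below lay near the shares over all genes tested. Those shares were 26.6% for genes that rose, 29.9% for genes that fell and 8.24% for genes called lower. Among class I genes 2 were called lower and none higher. Of 22 genes of the class I pathway 5 rose (1 to 3 without 48 h library 2 or either 91 h library) and 9 fell (4 over 14 libraries), with a median of -0.07, which turned to 0.09 without 48 h library 1. H2-K1, a class I heavy chain, had 4881 and 4411 at 48 h and 2607 and 2493 at 91 h (-0.87, SE 0.07, adjusted p = 2.9e-06), while B2m, the light chain it needs, had 13688 and 12199 at 48 h and 23787 and 23504 at 91 h (0.87, SE 0.07, adjusted p = 2.9e-06). H2-D1, another heavy chain that shares sequence with H2-K1, did not pass, with 4681 and 4089.8 at 48 h and 4690.4 and 4559.9 at 91 h (adjusted p = 0.39). Psmb9, an immunoproteasome subunit, had 109 and 85.2 at 48 h and 22.9 and 33.7 at 91 h (-1.74, SE 0.25, adjusted p = 0.00018), and Psmb8, another, did not pass, with 56.4 and 37.2 at 48 h and 39.3 and 46.4 at 91 h. Exons of Psmb9 overlap those of Tap1 on the other strand, which had means of 1054 at 48 h and 852.5 at 91 h. Tapbp, tapasin, fell (-0.51), which did not pass over 14 libraries (limma adjusted p = 0.12). Nlrc5, the class I transactivator, had 127 and 99.9 at 48 h and 162 and 149 at 91 h (0.45, SE 0.16, adjusted p = 0.033), which did not pass without 48 h library 2 or 91 h library 1, over 14 libraries, over the 8 T0 and mock libraries or with library totals made equal (limma adjusted p = 0.054 to 0.2). Of 11 interferon-inducible GTPases 3 fell (6 without 48 h library 2) and 1 rose. Of the GTPases 2 were called lower, but none without 48 h library 1, where the list's median turned from -0.10 to 0.10. Iigp1 had 562 and 416 at 48 h and 244 and 195 at 91 h (-1.15, SE 0.16, adjusted p = 0.00012). Gbp2 had 1589 and 1156 at 48 h and 687 and 643 at 91 h (-1.04, SE 0.13, adjusted p = 5.6e-05), both lower. Igtp did not pass, with 771 and 642 at 48 h and 675 and 639 at 91 h. Irgm1 rose, with 3889 and 3698 at 48 h and 5807 and 5037 at 91 h (0.52, SE 0.08, adjusted p = 0.00025), which did not pass over 14 libraries (limma adjusted p = 0.17). Cd74, the invariant chain of class II, had 168 and 135 at 48 h and 452 and 524 at 91 h (1.68, SE 0.14, adjusted p = 2.6e-06). C4b, a complement protein whose gene has a near-identical neighbour, had 215 and 163 normalised reads at 48 h and 1183 and 1263 at 91 h (2.69, SE 0.13, adjusted p = 3.7e-08). Cd274, the checkpoint ligand PD-L1, did not pass, with 916 and 706 at 48 h and 625 and 702 at 91 h (adjusted p = 0.069). Of 17 genes of interferon signalling 6 fell (3 without either 91 h library) and 2 rose, among them Ptpn2, a phosphatase of the pathway (-0.81), and Jak2, its kinase (0.43). Aire, a regulator of antigen display known from the thymus, had 479.6 and 352 at 48 h and 38.2 and 108 at 91 h (-2.49, SE 0.36, adjusted p = 0.00011).

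Genes of NF-κB, the transcription factor of inflammatory signals, fell. Of 13 tested, 11 fell, none rose and 6 were called lower, with a median of -0.85. Nfkbia and Nfkbie, inhibitors induced by the factor itself, had 804 and 727 at 48 h and 299 and 259.9 at 91 h (-1.45, SE 0.11, adjusted p = 1.2e-06) and 1239.6 and 1094 at 48 h and 359 and 339.95 at 91 h (-1.74, SE 0.09, adjusted p = 1.1e-07). Relb, a subunit, had 2305 and 1707 at 48 h and 710.2 and 716 at 91 h (-1.49, SE 0.12, adjusted p = 2.2e-06). Tnfaip3, the feedback enzyme A20, had 294 and 259 at 48 h and 38.2 and 67.4 at 91 h (-2.37, SE 0.23, adjusted p = 9.4e-06). These 4 genes were called lower. Nfkb1 and Nfkb2 had ratios of -0.77 and -1.20. Of 12 chemokine and cytokine genes 8 fell and 1 rose, with a median of -0.87. Cxcl10, a chemokine for T cells and among the 5 genes of highest mean level called lower, had 15776 and 13227 normalised reads at 48 h and 3354 and 2958 at 91 h (-2.20, SE 0.09, adjusted p = 1.2e-08), 4.59-fold lower. Its exons overlap those of Art3 on the other strand, which had means of 1305 at 48 h and 1127 at 91 h. Cxcl11 had 663 and 571 at 48 h and 298 and 273 at 91 h (-1.11). Ccl5 had 686 and 613 at 48 h and 358 and 378 at 91 h (-0.82). Csf1, a growth factor of macrophages, had 2135 and 1532 at 48 h and 966 and 966 at 91 h (-0.92). Spp1, osteopontin, was the member that rose, with 180.4 and 203 at 48 h and 437 and 431 at 91 h (1.18, SE 0.11, adjusted p = 9.7e-06). Immediate early genes had no common direction, with 10 of 22 lower (6 without 91 h library 1) and 5 higher. Maff had 521 and 475 at 48 h and 122 and 188 at 91 h (-1.67). Egr1 had 1506 and 791 at 48 h and 467 and 551 at 91 h (-1.17, SE 0.22, adjusted p = 0.0016). Jund had 2018 and 1938 at 48 h and 2550.1 and 2742 at 91 h (0.42).

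Genes of the matrix and of adhesion fell more often than they rose. Of 33 matrix genes 20 fell (13 without 91 h library 1) and 5 rose, with a median of -0.39. Col4a1 and Col4a2, the chains of basement membrane collagen, had 3513 and 3217 at 48 h and 1053 and 1212 at 91 h (-1.57, SE 0.08, adjusted p = 9.8e-08) and 2333 and 2083 at 48 h and 779 and 865 at 91 h (-1.42, SE 0.09, adjusted p = 2.2e-07), 2 genes whose exons overlap on opposite strands. Nid1, nidogen, which links that collagen to laminin, had 249.6 and 255 at 48 h and 745 and 624 at 91 h (1.44, SE 0.11, adjusted p = 1.7e-06). Of 24 adhesion genes 15 fell and 5 rose (3 without either 91 h library), with a median of -0.37. Cd9, a tetraspanin, had 2810.1 and 2878 at 48 h and 1293 and 1325 at 91 h (-1.12). Itga1, a collagen-binding integrin, had 929 and 820.5 at 48 h and 285 and 277 at 91 h (-1.64). Ncam1 had 4405 and 3985 at 48 h and 1831 and 1999 at 91 h (-1.13). Of 18 targets of YAP and TEAD 10 fell (6 without 91 h library 1) and 3 rose. Cyr61, a matricellular protein, had 2956 and 1666 at 48 h and 868 and 1226 at 91 h (-1.14, SE 0.22, adjusted p = 0.0015), and its relative Ctgf 119.7 and 145 at 48 h and 92.9 and 98.3 at 91 h (-0.46, SE 0.17, adjusted p = 0.036), which did not pass without 48 h library 2, 91 h library 1 or 91 h library 2 or over 14 libraries (limma adjusted p = 0.054 to 0.22). Of 12 genes of dedifferentiation and the neural crest 7 fell and 2 rose, with Snai2, a repressor of epithelial genes, at 209 and 151 at 48 h and 72.1 and 104 at 91 h (-1.02) and Sox9, a neural crest factor, at 378 and 318 at 48 h and 907 and 867 at 91 h (1.35, SE 0.10, adjusted p = 1.5e-06). Pdgfra, a growth factor receptor counted among the fibroblast markers, had 195 and 171 at 48 h and 14.2 and 7.02 at 91 h (-3.99, SE 0.31, adjusted p = 1.4e-06).

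The 12 protein-coding genes with the largest rises were mostly on none of the lists. Cdsn, corneodesmosin, known as an adhesion protein of the outer skin (chromosome 17, 35552128 to 35557180), had 50.4 and 40.1 normalised reads at 48 h and 1028 and 975 at 91 h (4.44, SE 0.14, adjusted p = 1.3e-09), 21.7-fold higher and the only gene past 16-fold. Dlg2, a synaptic scaffold, had 27.4 and 36.2 at 48 h and 310.3 and 320.3 at 91 h (3.27, SE 0.18, adjusted p = 1.3e-07). Nrip2, a nuclear receptor-interacting protein, had 54.7 and 28.4 at 48 h and 391 and 407 at 91 h (3.23, SE 0.25, adjusted p = 1.3e-06). Kcnj13, a potassium channel, had 69.2 and 75.4 at 48 h and 479 and 507 at 91 h (2.75, SE 0.13, adjusted p = 3.7e-08). Nrip2 and Kcnj13 overlap exons of Itfg2 and Gigyf2 on the other strand, whose ratios were -0.03 and 0.56. At T0 these 4 genes had means of 20.8, 5.01, 13.7 and 5.55. Tenm4, a teneurin of the cell surface, had 873 and 673 at 48 h and 4211 and 4408 at 91 h (2.48). Wdr81, a regulator of endosomes, had 223 and 263 at 48 h and 1499 and 1277 at 91 h (2.51). Dcdc2a, a doublecortin-domain protein, had 22.2 and 19.6 at 48 h and 122 and 107 at 91 h (2.40). All 3 were called higher. Ifi204, a member of a family of similar interferon-inducible genes, had 15.4 and 20.6 at 48 h and 152 and 145 at 91 h (2.98). Gm10800 and Gm10801 are predicted genes with near-identical repeats, so their ratios of 2.60 and 2.97 are uncertain. Of the 5 genes of highest mean level called higher, Spg21, an endosomal protein, had 6086 and 6627 at 48 h and 14405 and 14181 at 91 h (1.17). Sorcs2, a sorting receptor, had risen by 48 h from a T0 mean of 63.3 and had 675 and 539 at 48 h and 68.8 and 71.6 at 91 h (-3.09, SE 0.14, adjusted p = 2.7e-08).

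Smaller lists are given here as genes that passed the test, which 26.6% of all genes did as higher and 29.9% as lower. Called lower, with a 2-fold change as well, were 3 of 11 genes of acid handling, 2 of 7 targets of Wnt and 2 of 14 control genes. The share over all genes was 8.24%. These calls are partly repeats: Car12 and Car9 of acid handling are also on the hypoxia list. Gapdh and Pgk1 of the control genes are also on the glycolysis list. The other lists of this paragraph had at most 1 call in each direction. Of 22 cell death genes 10 rose and 6 fell (3 without 91 h library 1), with Bcl2l1, the survival protein BCL-XL, at 0.92. Of 16 clock genes 4 rose and 3 fell, with Bhlhe41 at 1.04 and Hlf at -1.71. Of 20 aminoacyl-tRNA synthetases 8 rose and 6 fell, from Mars at -1.02 to Wars at 0.87, and of 15 amino acid transporters 7 rose and 4 fell, with Slc1a5, a glutamine carrier, at 0.73. Of 10 genes of metal handling 7 rose, with Tfrc, the transferrin receptor, at 0.90, and 1 fell. Of 7 targets of Wnt 4 fell (2 without 91 h library 1) and 1 rose, with Tcf7 at -1.68 and Axin2 at 0.74. Of 9 genes of retinoic acid 4 rose and 1 fell, with Aldh1a3 at -1.39. Of 7 complement genes 3 rose and 1 fell, of 9 checkpoint genes 1 rose and 3 fell (1 without 91 h library 1), of 8 Notch genes 1 rose and 1 fell, of 15 genes of phosphatidylserine handling 2 rose and 6 fell (3 without 91 h library 1), and of 11 genes of acid handling 2 rose and 5 fell. Of 14 genes often used as controls 4 rose and 5 fell (2 each without 91 h library 1), and of 8 RNAs without a poly(A) tail 3 rose and 1 fell. The 18S ribosomal RNA entry held 12.7% of the listed level at 48 h and 14.2% at 91 h.

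The earlier mock samples place these changes in the course of the culture. Between 91 and 23.5 h, 4317 of 12484 genes were higher at 91 h (34.6%) and 4459 lower (35.7%), and between 91 h and T0, 4757 of 12786 were higher (37.2%) and 4738 lower (37.1%). These comparisons share the 91 h libraries. The median mitotic gene stood at -0.03 on the log2 scale from T0 at 23.5 h, -0.48 at 48 h and -5.17 at 91 h. The median replication gene stood at -1.21 at 48 h and -3.38 at 91 h. The median lysosomal gene stood at 0.03 at 48 h and 0.74 at 91 h, and the median p53 target at 0.10 and 1.03. These 4 medians moved by more between 48 and 91 h than between T0 and 48 h. Those of interferon-stimulated genes and of the stress response moved by less. The interferon-stimulated median went from 0.31 at 23.5 h to 2.90 at 48 h and 2.73 at 91 h, and that of the stress response from 0.32 to 1.79 and 2.38. NF-κB genes peaked at 48 h, with 1.51, and stood at 0.37 at 91 h. Heat shock genes had their lowest median at 48 h, with -0.93, and stood at -0.48 at 91 h. Of 22 chaperones of the endoplasmic reticulum 14 were lower at 91 h than at T0 and 4 higher.

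**Figure D4:**
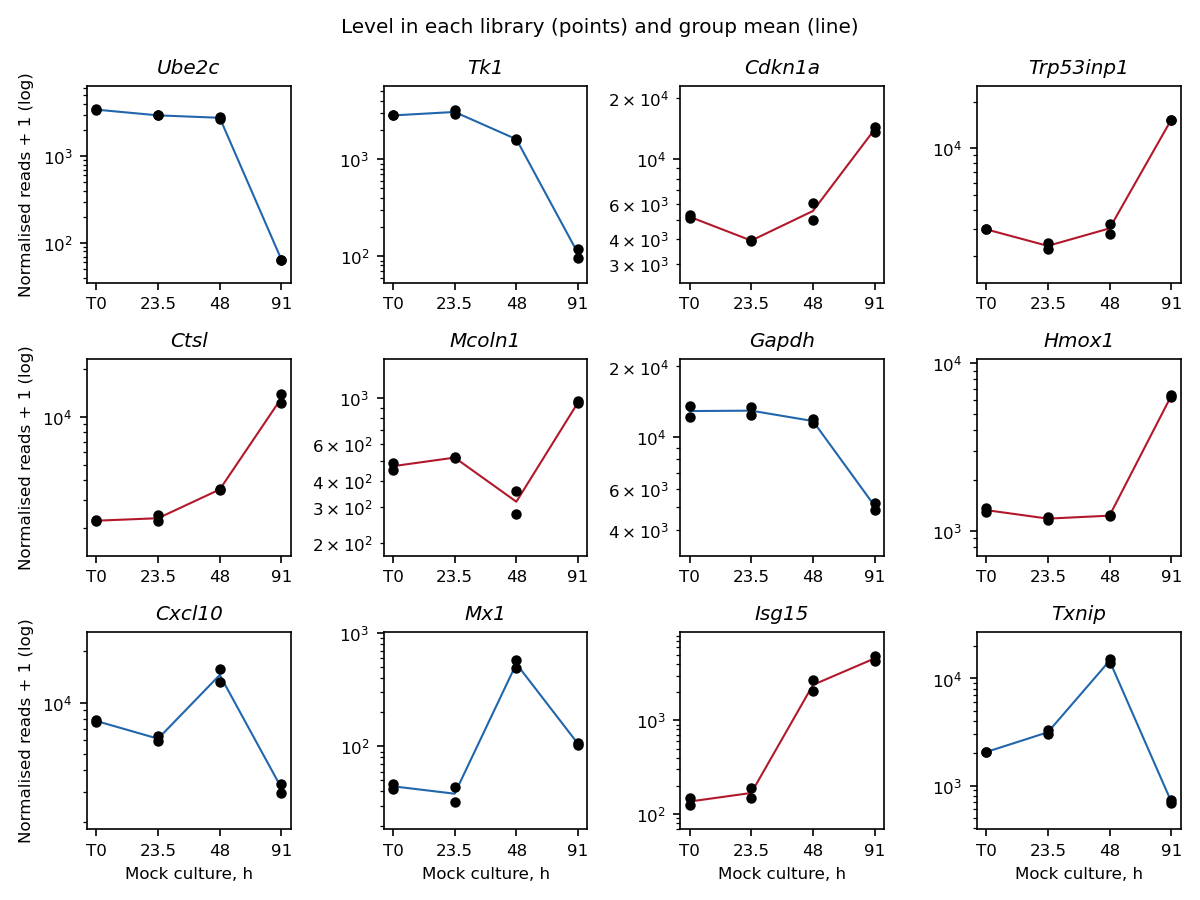
Points are the 2 libraries of T0 and of mock culture at 23.5, 48 and 91 h, evenly spaced on the x axis, for 12 genes, with a line through the group means and the level as normalised reads + 1 on a log axis. Cxcl10, Mx1 and Txnip are highest at 48 h, Ube2c, Tk1 and Gapdh are lowest at 91 h, and Cdkn1a, Trp53inp1, Ctsl, Mcoln1, Hmox1 and Isg15 are highest at 91 h.

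Single genes followed different courses within 1 list. Isg15 had a mean of 135 at T0, 167 at 23.5 h, 2383 at 48 h and 4571 at 91 h, so it was still above its 48 h level when Mx1, with 43.4, 37.2, 535 and 104 at these times, had come down. Mlana had 18573 at T0 and 20596 at 23.5 h, against 4372 at 48 h and 11303 at 91 h. Its rise after 48 h therefore ended below the T0 mean. The same held for Fasn, with 17531 at T0 and 10507 at 91 h, and for Tfrc, with 8801 and 4706. Car9 had 534 at T0 and 317 at 23.5 h, against 1989 at 48 h and 412 at 91 h. Hspa1b had 92.2 at T0, and its 91 h mean of 100.3 was close to that. Mcoln1 had 469 at T0, 316 at 48 h and 954 at 91 h.

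**Figure D5:**
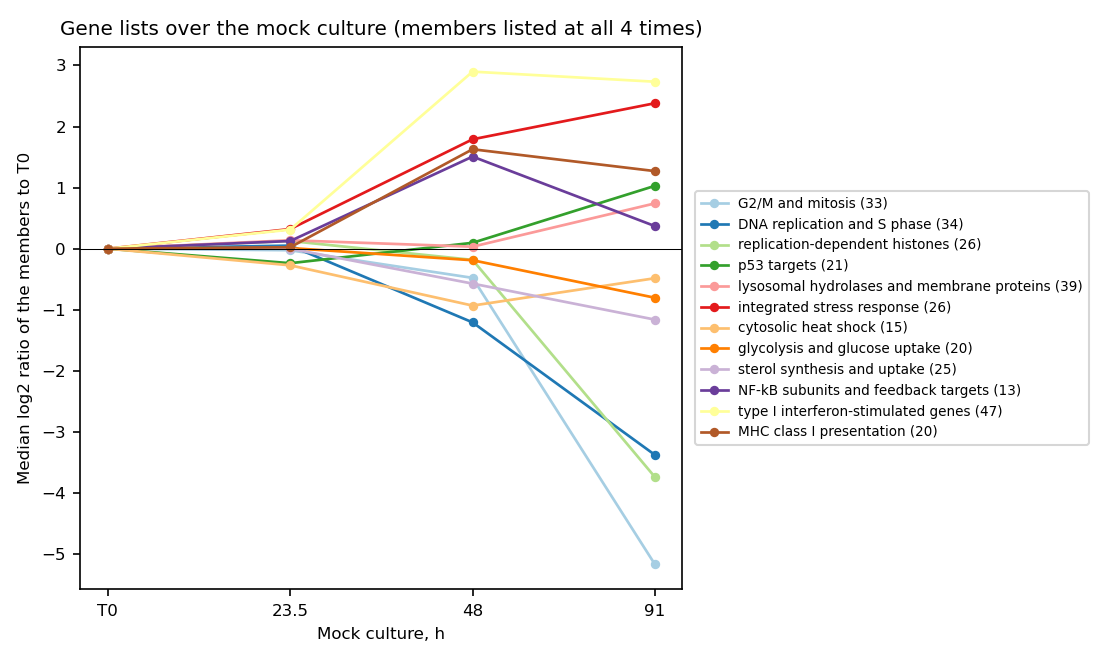
Each line is 1 of 12 gene lists, with the median log2 ratio of its members to T0 on the y axis and T0 and the 3 mock times, evenly spaced, on the x axis, for members listed at all 4 times (number in brackets). Between 48 and 91 h the mitotic line drops from -0.48 to -5.17, the lysosomal line goes from 0.03 to 0.74 and the interferon-stimulated line is at 2.90 and then 2.73.

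The cells pulsed with IFNγ can be set beside the mock cells at the same times. No gene of 12608 passed a limma test of the difference between the 48 to 91 h changes of pulsed and mock cells. At an unadjusted p below 0.05 there were 880, and the smallest adjusted p was 0.215. The 48 h IFNγ libraries lay far apart, with an SD of 0.419 for the log2 ratio of the 2 libraries. Without library 1 of them 1547 genes passed, and without library 2 873. Ube2c had means of 2759 at 48 h and 63.3 at 91 h in mock cells and 2024 and 59.3 in pulsed cells, and Ctsl 3498 at 48 h and 13151 at 91 h against 3616 and 15903. Cdkn1a had 5523 at 48 h and 14034 at 91 h against 5174 and 13257. In these 3 genes both cultures moved in the same direction by their means. Cd74 rose in mock cells, with 152 at 48 h and 488 at 91 h, and had 12947 and 1517 in pulsed cells, and Nlrc5 had 113 at 48 h and 155 at 91 h against 2468 and 846. The difference did not pass the test in either gene.

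Some genes could not enter the comparison. In 40 genes, with a higher group mean of at least 20566, the reads of a library had several solutions, and they have means but no test. Another 121 genes were listed in the table of 91 h and not in that of 48 h, 85 of them at 20 or more, and 305 the other way round, 99 of them at 20 or more. The highest were Sh2d6 at 91 h, with a mean of 774 against 1.55 at T0, and Gbp5 at 48 h, with 82.8 against 4.82 at T0. These were chosen after their values were seen, as were Atg5, Ddb2, Fen1, Hist1h1c, Hist1h2bc, Ifi44, Isg15, Mcoln1, Mdm2, Sesn1, Tfeb, Uvrag, Wipi1 and the overlapping genes Art3, Gigyf2, Hspd1, Itfg2 and Tap1. No ratio was made for Sh2d6 and Gbp5.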

How the data were processed

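Per the submitters' processing notes, reads were handled with STAR 2.5.0a, Picard 1.124, HTSeq 0.5.3 and DESeq on mm10 (GRCm38). The authors deposited, for each condition against T0, the mean normalised read count of both groups as a signal value, a log2 fold change and p-values, per the file headers. Their log2 fold changes and deposited p-values were not used. Entries that name no gene, such as unassigned reads, held 62.9% of the listed total at 48 h and 70.3% at 91 h and were dropped. A deposited mean of 10 digits is a weighted sum of the whole reads of 2 libraries, and solving it gave 1 pair for 99.6% of 157036 values. For means above 3000 only libraries within 4-fold of each other were tried. The T0 reads solved from different tables agreed in all 26614 cases.

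Each library's normalised reads were fitted with limma 3.58.1 (R 4.3.3), with a variance trend, on log2(value + 1), two-sided, with Benjamini-Hochberg adjustment over all 12566 genes tested. The pseudocount understates changes of low genes. A gene passed at an adjusted p below 0.05 and was called with a 2-fold ratio of means as well. Recovery and test were tested on simulated data. Other tables were prepared in Python 3.11.15.

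Named genes were the 12 protein-coding genes highest and lowest by ratio among called genes with a mean of at least 100, the 5 called genes of highest level in each direction, up to 6 members of each list by lowest p, and a set of key genes. Members, lists and key genes were chosen with earlier results of these data known. A few genes are not reported here. Positions and exon overlaps come from GENCODE on GRCm38. Gene identifiers sharing exons on opposite strands, and near-identical copies, are uncertain, since the counting strand is not given in the sources used here. Overlaps are not all given beside the genes, and Irf7, Ddb2, Cyp51 and Pmel are among the named genes that also overlap another listed gene.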

Additional observations from a re-analysis of the deposited data

How the results depend on the processing

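The counts of genes higher and lower at 91 h than at 48 h, 3347 and 3759, stayed within 1.5 times under all alternatives run, from 2544 to 4545 and from 2980 to 4948. Both maxima came from an exact binomial test on the reads of each group added up, a test of libraries rather than conditions. With equal totals in place of the T0 scale 2848 genes were higher and 4261 lower, with an all-gene median of -0.08. Of 194 named genes that passed, 177 passed under every alternative and none changed direction. Of the other 17, 10 were lost in a fit over all 14 libraries, 9 without a variance trend and 8 without 91 h library 1. Without a variance trend, 12 interferon-stimulated genes rose and 10 fell. The fit of pulsed against mock changes, with 0 genes past the test, gave 30 higher and 33 lower over all 14 libraries, and between 0 and 761 higher and 0 and 786 lower when 1 library was left out. The cause was not tested. Fits that leave out 1 library assume that the lone library varies like the other group. No paired analysis was possible because the 2 libraries of a group carry no number in the labels. Depth limits low genes such as Cdkn3, where a few reads set the ratio.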
